A study of Homo sapiens with 6 samples.

Results

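The Notch genes described here are 10 genes chosen by name for their place in one signaling pathway. They are the receptors NOTCH1, NOTCH2 and NOTCH3, the ligands JAG1, JAG2 and DLL1, and the target genes HES1, HES4, HEY1 and NRARP. All 10 were listed in each of the 6 count files, among 24462 different gene symbols. The files come from bulk RNA-seq of 3 libraries of 1CT and 3 of 1CT-A. 1CT is an immortalized line of human colon epithelial cells with the genotype WT, and 1CT-A is its APC depleted version, labelled APC KD. The cells of both lines were untreated and grew in a medium with 20 ng/ml of epidermal growth factor, hydrocortisone, insulin, transferrin, sodium selenite and 2% fetal bovine serum. How APC was depleted in 1CT-A, and whether that line is 1 clone, is not given in the sources used here. Nothing says that the libraries of a line came from separate cultures, so the p-values below measure only the spread between these libraries, which may be technical.

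Notch signaling passes between touching cells. A ligand of the Jagged or Delta type on one cell binds a NOTCH receptor on its neighbor, and proteases then release the intracellular part of the receptor, which enters the nucleus and, with the DNA binding protein RBPJ, switches on target genes such as the HES and HEY repressors. In the colon crypt the pathway is known for keeping progenitor cells dividing and for holding back the secretory cell fate. APC is a brake on the Wnt pathway that is often lost early in colorectal cancer, and the comparison of 1CT-A with 1CT asks how gene expression differs when it is depleted.

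Between 7788679 and 8452258 reads were counted in the 1CT libraries and between 11158108 and 12602988 in the 1CT-A libraries. Levels are given as CPM, the counts of a gene scaled to the total of its library and to a common library size, so that the smallest number taken as visible, 3 counts, was 0.355 to 0.385 CPM in a 1CT library and 0.238 to 0.269 CPM in a 1CT-A library. These limits cover counting error only. APC itself, the depleted gene, went from 46.6 ± 2.75 CPM in the WT line to 31.9 ± 2.21 CPM in 1CT-A (both SD, n = 3), and was lower in every 1CT-A library (edgeR adjusted p = 1.8e-04). Several defining epithelial genes were missing from both lines. EPCAM, CDX1 and VIL1 had 0 counts in all 6 libraries. Of 10 colon epithelium markers, 4 had 3 counts or more in every 1CT library, and 1 in every 1CT-A library. That 1 was KRT18, at a mean of 11.2 CPM in 1CT and 5.06 CPM in 1CT-A. KRT19 was at 3.33 CPM in 1CT and had 0 counts in 1CT-A. The summed level of the 10 markers, most of it KRT18, was 13.4 to 17.6 CPM in the 1CT libraries, against 3.23 to 7.20 CPM in 1CT-A. Against this, 10 fibroblast and mesenchymal markers, with VIM and COL1A1 among them, were all counted in every library and summed to 4759 to 5826 CPM in the 1CT libraries, against 4399 to 4725 CPM in 1CT-A. Singly, 5 of these 10 were lower in 1CT-A, VIM and COL1A1 included, 2 were higher (COL3A1 with a log2 fold change of 2.37 and DCN with 0.30) and 3 did not pass the test. Over all 12514 genes tested, 26% were lower and 25% were higher. Of 10 endothelial markers, 2 had 3 counts or more in every library of each line, and the sum of the list was 6.42 to 10.9 CPM in the 1CT libraries, against 2.33 to 3.25 CPM in 1CT-A. Of 10 immune markers it was also 2, and the sum was 12.7 to 15.3 CPM in the 1CT libraries, against 9.28 to 10.5 CPM in 1CT-A, with PTPRC at 0 throughout. CD68 made up most of the immune sum, at a mean of 12.1 CPM in 1CT and 9.33 CPM in 1CT-A. TEK and EGFL7 made up most of the endothelial sum, at means of 4.38 and 3.05 CPM in 1CT and 1.60 and 0.99 CPM in 1CT-A. The sums of all 4 lists were lower in every 1CT-A library than in any 1CT library. As few genes carried each sum, it does not stand for its list or for a cell type. The part of these markers in the results below was not tested. Of 10 markers of the secretory lineage, 8 had 0 counts in all 6 libraries, MUC2 and ATOH1 included.

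The sequences shown first are those just before HES1 and HES4, because these target genes carry the letters that RBPJ binds and both were lower in 1CT-A. They are RefSeq sequences of GRCh38.p14, written 5′ to 3′ on the strand of the gene, from 120 to 46 bases before the RefSeq start, and capitals mark the RBPJ core TGGGAA.
HES1: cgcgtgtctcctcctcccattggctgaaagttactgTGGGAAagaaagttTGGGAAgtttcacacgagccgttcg
HES4: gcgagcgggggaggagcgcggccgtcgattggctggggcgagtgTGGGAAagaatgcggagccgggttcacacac
The HES1 stretch lies at chr3:194136028-194136102 on the plus strand and the HES4 stretch at chr1:1000143-1000217 on the minus strand. GENCODE places the first start of HES4 75 bases further upstream than RefSeq does, so that part of the HES4 stretch lies inside the gene in that annotation. Both sequences hold the same 12 letters, TGTGGGAAAGAA, which begin 86 bases before HES1 and 78 bases before HES4.

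The promoter table held 8 of the 10 genes, with DLL1 and HEY1 as the missing entries. In the 250 bases before the start, HES1 had 2 RBPJ cores and HES4 had 1, searched as TGGGAA on both strands. Of all 35116 promoters in the table, 20.8% held at least 1 such match and 2.9% at least 2. The N box CACNAG, the site that HES1 is known to bind in its own promoter, was found 3 times before HES1 and once before NOTCH3, and 32% of all promoters held at least 1. The TCF/LEF core CTTTGA was found before none of the 8 genes, and in 11.2% of all promoters. A match is a description of letters and not of a bound site.

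**Figure D1:**
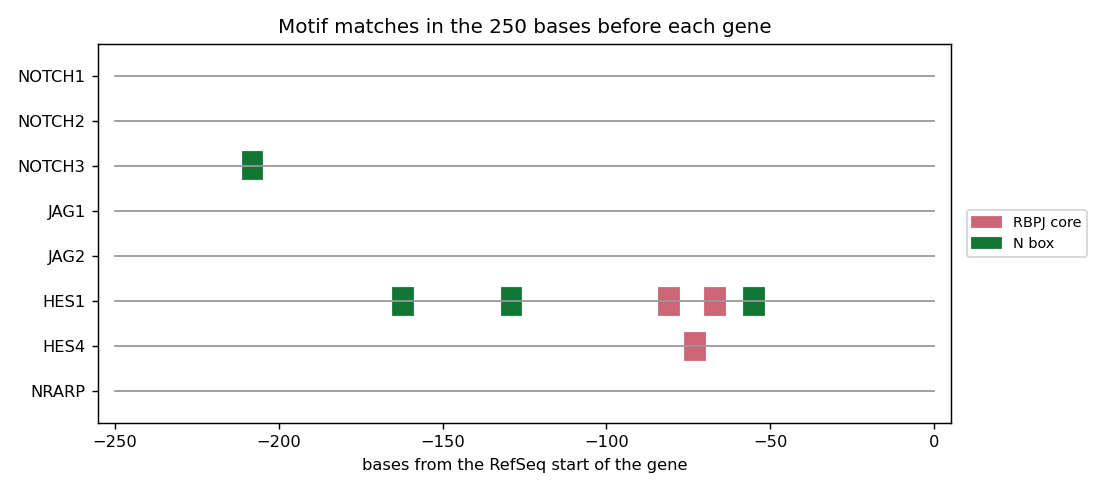
Matches to the RBPJ core and the N box, drawn as boxes along the 250 bases before the RefSeq start of 8 Notch genes, with the distance from the start in bases on the horizontal axis. HES1 holds 2 RBPJ cores and 3 N boxes, HES4 holds 1 RBPJ core, NOTCH3 holds 1 N box, and the other 5 genes hold neither.

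Among the receptors, NOTCH3 was almost lost from 1CT-A, whereas neither NOTCH1 nor NOTCH2 passed the test. NOTCH3 (chromosome 19, 15159038 to 15200995 in GRCh38) is a receptor known from pericytes and vascular smooth muscle. In 1CT, 46, 45 and 35 reads were counted on it, which is 5.44, 5.43 and 4.49 CPM, and in 1CT-A 0, 3 and 5 reads, which is up to 0.397 CPM. The lines did not overlap, and the 1CT-A libraries were close to the limit of what the depth can show. The log2 fold change, given throughout as 1CT-A over 1CT, was -4.46 (standard error 0.45, quasi-likelihood test in edgeR, Benjamini-Hochberg adjusted p = 3.5e-06 over 12514 genes). From the summed counts alone, NOTCH3 was 22.6 times as high in 1CT, with a 95% counting interval of 11.1 to 53.4. Such an interval, here and below, covers counting error only and leaves out the spread between libraries. As 1CT-A over 1CT it also excluded 1 for NOTCH2 (1.04 to 1.21) and DLL1 (1.03 to 4.59), neither of which passed the test. With 1 library left out, the log2 fold change was lowest without 1CT-A replicate 3, at -5.17 (edgeR adjusted p = 2.1e-05). It was closest to no change without 1CT-A replicate 1, at -3.93 (edgeR adjusted p = 1.1e-05). In bulk RNA, fewer cells with NOTCH3 and less NOTCH3 RNA per cell cannot be told apart, and this holds for each gene below.

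NOTCH1 (chromosome 9, 136494433 to 136546048), the founding receptor of the family, had 7.93, 8.57 and 7.58 CPM in the 1CT libraries and 5.91, 6.58 and 8.17 CPM in the 1CT-A libraries. The lines overlapped through 1CT-A replicate 3. Its log2 fold change was -0.25 with a 95% interval of -0.63 to 0.12 (edgeR adjusted p = 0.24). NOTCH2 (chromosome 1, 119911553 to 120100779) had 46.4, 51.9 and 35.8 CPM in the 1CT libraries and 48.9, 50.1 and 51.8 CPM in the 1CT-A libraries. Here too the lines overlapped, with 1CT replicate 2 above every 1CT-A library and 1CT replicates 1 and 3 below them. The log2 fold change of NOTCH2 was 0.13 with a 95% interval of -0.11 to 0.37 (edgeR adjusted p = 0.35). Its near-identical partial copy NOTCH2NL, a human-specific duplicate, had its own counts, at 11.7 to 12.8 CPM in the 1CT libraries, against 10.5 to 12.9 CPM in 1CT-A. Whether any reads were exchanged between NOTCH2 and this copy was not tested.

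**Figure D2:**
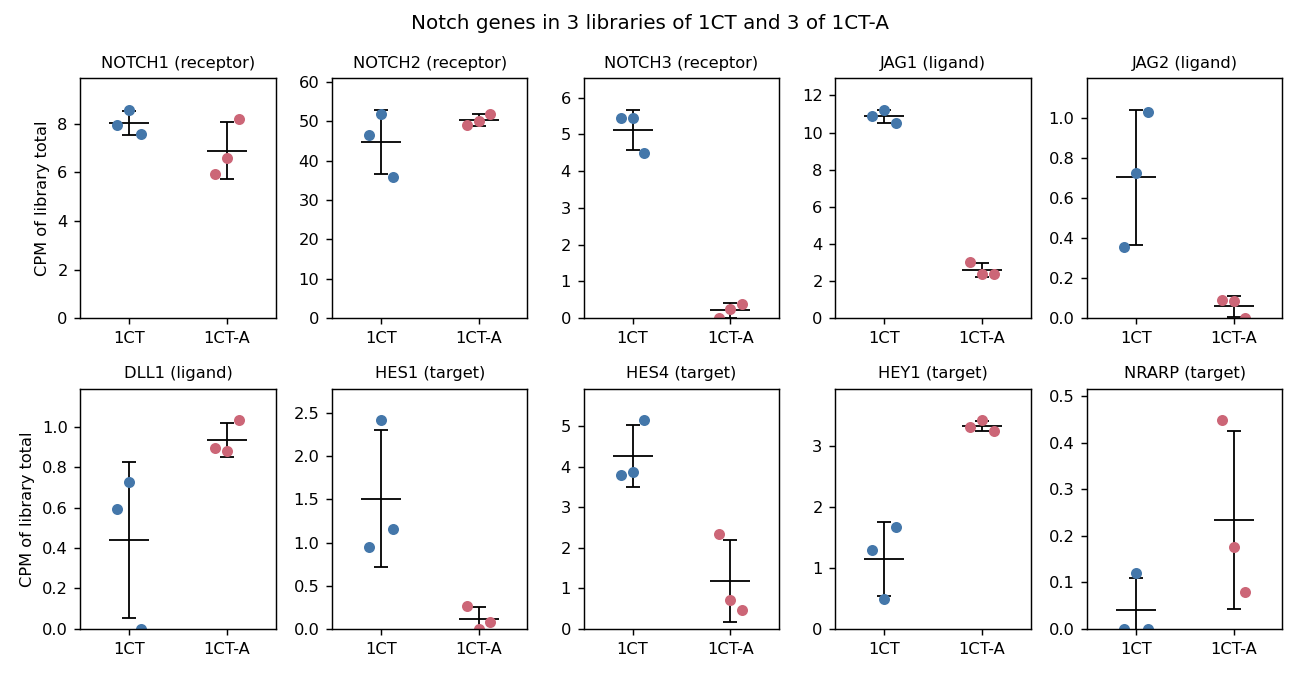
CPM of each of the 10 Notch genes, with 1 point per library, for 3 libraries of 1CT and 3 of 1CT-A. Black bars show the mean and SD of a line, and each vertical axis starts at 0 with its own scale. NOTCH3, JAG1, JAG2, HES1 and HES4 lie lower in every 1CT-A library and HEY1 and DLL1 lie higher, while NOTCH1, NOTCH2 and NRARP overlap.

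Among the ligands, the Jagged genes were lower in 1CT-A. JAG1 (chromosome 20, 10637684 to 10673999), a membrane-bound ligand that is itself known as a Wnt target, had 92, 93 and 82 counts in 1CT, which is 10.9, 11.2 and 10.5 CPM. In 1CT-A it had 34, 27 and 30 counts, which is 3.05, 2.37 and 2.38 CPM. Even the highest 1CT-A library was far below the lowest 1CT library. The log2 fold change was -2.10 (standard error 0.19, edgeR adjusted p = 1.1e-06), and it stayed between -2.23 and -2.03 whichever library was left out. JAG1 passed the filter on low counts in both lines, unlike NOTCH3.

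JAG2 (chromosome 14, 105140982 to 105168824), the second Jagged ligand, was near the limit of detection. Its counts were 3, 6 and 8 in 1CT and 1, 1 and 0 in 1CT-A. JAG2 was left out by the filter on low counts. In a fit of all 19169 symbols with a count it passed the test as lower in 1CT-A (edgeR without a filter, adjusted p = 0.0038, and up to 0.0492 over the alternatives). That fit gave smaller p-values for each member called in both fits. For JAG1 the edgeR adjusted p was 2.4e-20 without the filter and 1.1e-06 with it. P-values from the fit without a filter therefore cannot be set beside those from the fit with it. The ratio of the summed counts was 12.2 in favor of 1CT, with a wide 95% counting interval of 2.89 to 108.7. In GENCODE a long noncoding RNA gene, ENSG00000257622 (105152194 to 105181194), overlaps JAG2 on the same strand. Whether any JAG2 counts came from it was not tested.

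DLL1 (chromosome 6, 170282206 to 170306565), a Delta ligand that in the crypt marks early secretory cells, had counts of 5, 6 and 0 in 1CT and of 10, 10 and 13 in 1CT-A, whose libraries are deeper. The 1CT-A libraries lay at 0.878 to 1.03 CPM, above the 1CT libraries at 0 to 0.724 CPM. The difference did not pass the test without a filter (log2 fold change 1.06, 95% interval -0.12 to 2.24, edgeR adjusted p = 0.17). Without 1CT replicate 3, which had the 0, the log2 fold change was 0.52. DLL1 overlaps FAM120B on the other strand in GENCODE, and FAM120B had 94 to 161 counts per library. The shared part, from 170290703 to 170306565, holds the 3′ end of neither gene, and reads of these libraries come from near the poly(A) tail. Whether any DLL1 counts came from FAM120B was not tested.

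The target genes moved in both directions. HES1 and HES4 were lower in 1CT-A and HEY1 was higher. HES1 (chromosome 3, 194136148 to 194138732), the repressor whose promoter with its paired RBPJ cores is printed above, had 8, 20 and 9 counts in 1CT, which is 0.946, 2.41 and 1.16 CPM. In 1CT-A it had 3, 0 and 1 counts, and the highest library was at 0.269 CPM. The lines did not overlap, and 1CT replicate 2 stood above the other 1CT libraries. HES1 did not pass the filter, and without a filter its log2 fold change was -3.58 (standard error 0.70, edgeR adjusted p = 2.0e-06, and at most 0.00305 over the alternatives). As for JAG2, these p-values cannot be set beside those from the fit with the filter. The summed counts gave a ratio of 13.3 in favor of 1CT, with a 95% counting interval of 4.76 to 51.2. With 1 library left out, the log2 fold change was lowest without 1CT-A replicate 1, at -4.80 (edgeR without a filter, adjusted p = 2.7e-06). It was closest to no change without 1CT-A replicate 2, at -3.05 (edgeR without a filter, adjusted p = 1.7e-04).

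HES4 (chromosome 1, 998962 to 1000172), a HES repressor without a counterpart in the mouse, had 32, 32 and 40 counts in 1CT, which is 3.79, 3.86 and 5.14 CPM. In 1CT-A it had 26, 8 and 6 counts, which is 2.33, 0.702 and 0.476 CPM. Replicate 1 of 1CT-A stood well above the other 1CT-A libraries but below all 1CT libraries. The log2 fold change was -1.92 (standard error 0.43, edgeR adjusted p = 0.0025), and -2.88 without that library (edgeR adjusted p = 1.1e-04). Without 1CT-A replicate 3 it was -1.51 (edgeR adjusted p = 0.0123), the smallest change with a single library left out.

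HEY1 (chromosome 8, 79762371 to 79767857), a repressor of the related HEY group, rose. It had 11, 4 and 13 counts in 1CT, which is 1.30, 0.483 and 1.67 CPM, and 37, 39 and 41 counts in 1CT-A, which is 3.32, 3.42 and 3.25 CPM. The 1CT-A libraries were nearly equal and lay above every 1CT library. The log2 fold change was 1.49 (standard error 0.35, edgeR adjusted p = 0.0031), in a range of 1.12 to 1.86 when single libraries were left out. NRARP (chromosome 9, 137299631 to 137302271), a target that feeds back to dampen the active receptor complex, had 0, 1 and 0 counts in 1CT and 5, 2 and 1 counts in 1CT-A. Only 1CT-A replicate 1 was above 3 counts, and no difference was detectable at this depth (edgeR without a filter, adjusted p = 0.25).

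**Figure D3:**
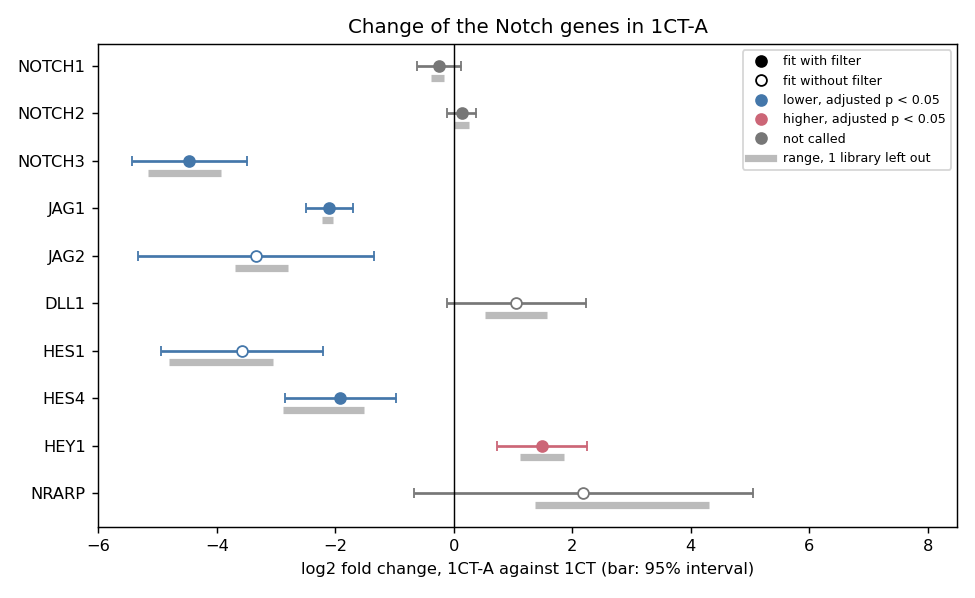
Log2 fold change (1CT-A over 1CT) for the 10 Notch genes, with its 95% interval from edgeR. Filled points come from the fit with the filter on low counts, open points from the fit without it, and grey bars give the range with 1 library left out. NOTCH3, JAG1, JAG2, HES1 and HES4 lie to the left of 0 and HEY1 to the right, and the intervals of NOTCH1, NOTCH2, DLL1 and NRARP include 0.

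Counted over the 10 genes in the fit without a filter, 5 were lower in 1CT-A (NOTCH3, JAG1, JAG2, HES1 and HES4), 1 was higher (HEY1) and 4 did not pass. Among all 19169 symbols of that fit, 18.6% were lower and 19.2% were higher. The lines did not overlap for 7 of the 10 genes, as for 44.9% of all symbols with a count. The median log2 fold change of the 10 was -1.04, and that of all symbols in that fit was -0.10. With the filter, 6 of the 10 could be tested, of which 3 were lower and 1 was higher, where 51% of 12514 genes passed, 26% as lower and 25% as higher. NOTCH3 was past the filter's level of 1.02 CPM in all 3 1CT libraries and in 0 of 1CT-A, so that it had to differ to be tested. HES4 was past it in 3 libraries of 1CT and 1 of 1CT-A, and HEY1 in 2 of 1CT and 3 of 1CT-A. The count over the 6 is given as a description. Exact permutation tests of 3 libraries against 3, two-sided, cannot give a p below 0.1, which is the value for each of the 7 genes without overlap.

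Added over the 3 receptors, the level was 47.9 to 65.9 CPM in the 1CT libraries, against 54.8 to 60.4 CPM in 1CT-A, so that the lines overlapped. Added over the 3 ligands, it was 11.6 to 12.7 CPM in the 1CT libraries, against 3.34 to 4.03 CPM in 1CT-A, without overlap. Added over the 4 targets, it was 6.03 to 7.96 CPM in the 1CT libraries, against 3.89 to 6.36 CPM in 1CT-A, and only 1CT-A replicate 1, the library of that line with the most HES4, overlapped with 1CT. The share of a gene within its group needs no scaling between libraries, and because each read of a 3′ library stands for 1 transcript end it is not weighted by gene length. NOTCH3 made up 8.91% ± 0.60 of the receptor counts in 1CT and 0.373% ± 0.337 in 1CT-A, and NOTCH2 77.1% ± 2.04 and 87.7% ± 1.73 (SD, n = 3). JAG1 made up 90.6% ± 1.78 of the ligand counts in 1CT and 72.1% ± 3.04 in 1CT-A, and DLL1 3.57% ± 3.11 and 26.3% ± 4.01 (SD, n = 3). The targets were led by HES4 in 1CT, with 61.1% ± 4.41 of their counts, and by HEY1 in 1CT-A, with 71.8% ± 17.2 (SD, n = 3). HEY1 made up 16.5% ± 8.23 of the target counts in 1CT, and HES4 21.7% ± 13.1 in 1CT-A (SD, n = 3). Of the 10 shares, that of NOTCH1 overlapped between the lines and the other 9 did not (p = 0.1 in two-sided exact permutation tests, again the lowest value possible). Shares in a group add up to the whole, so a fall in 1 gene raises the others, and the 9 are not separate results. The NOTCH2 share did not overlap although its CPM did, and the NRARP share rests on 1 summed count in 1CT and 8 in 1CT-A.

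**Figure D4:**
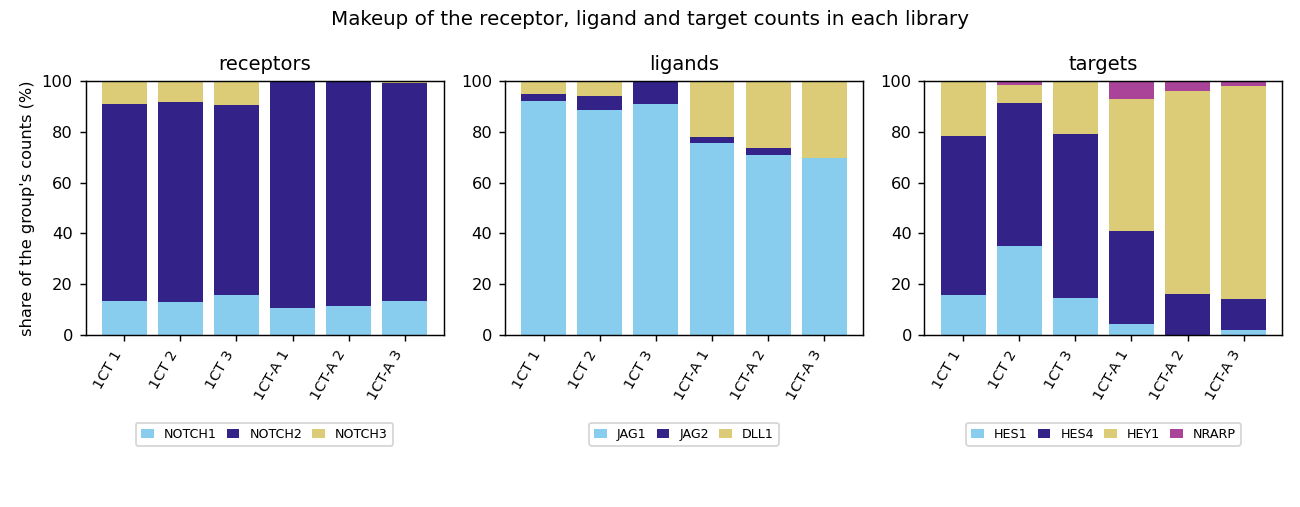
Stacked bars of the share of each gene, in percent, among the counts of the 3 receptors, the 3 ligands and the 4 targets in each of the 6 libraries. NOTCH3 is barely visible among the receptors of 1CT-A, DLL1 takes a larger part of the ligands there, and the leading target is HES4 in 1CT and HEY1 in 1CT-A.

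The other genes of the pathway were read from a list of 60, of which 47 passed the filter. Of these, 13 were higher in 1CT-A, 14 were lower and 20 did not pass the test, and the median log2 fold change was -0.08, against -0.01 over all 12514 genes. Called genes were thus 13 and 14 of 47, where 25% and 26% of all genes were called higher and lower. The counts by role below are descriptions to be read beside these shares. Most of the called differences were small, and 4 genes were called with an absolute log2 fold change of at least 1, namely DLL3, LFNG and FURIN as lower and MYC as higher. Over all genes, 9.92% were called lower and 4% higher by that much.

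DLL3 (chromosome 19, 39498895 to 39508481), a divergent Delta ligand that does not activate receptors on neighboring cells, had 316, 247 and 294 counts in 1CT and 20, 22 and 14 counts in 1CT-A. That is 29.8 to 37.8 CPM against 1.11 to 1.93 CPM, without overlap. Its log2 fold change was -4.48 (standard error 0.19, edgeR adjusted p = 1.7e-09). Of the other ligands in the list, DLK2 was tested and did not pass (-0.45, edgeR adjusted p = 0.08), DLL4 had at most 6 counts in a library and DLK1 had 0 in all. NOTCH4, the remaining receptor, had at most 4 counts in a library.

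LFNG (chromosome 7, 2512529 to 2529177), the fringe enzyme that adds sugars to NOTCH receptors and so changes which ligands they answer to, had 24, 28 and 17 counts in 1CT and 5, 2 and 9 counts in 1CT-A. The lines did not overlap, and the log2 fold change was -2.63 (standard error 0.41, edgeR adjusted p = 1.6e-04). Like NOTCH3, LFNG was past the filter's level in 3 libraries of 1CT and 0 of 1CT-A, so that it had to differ to be tested. RFNG, a second fringe gene, was also lower (-0.77), POFUT1, which adds the fucose that fringe enzymes build on, was higher (0.26, edgeR adjusted p = 0.0149), POGLUT1 did not pass, and MFNG had 0 counts in all libraries. Among the 3 tested ubiquitin ligases that act on the ligands, 1 was lower, which was NEURL1B (-0.97, edgeR adjusted p = 1.6e-04).

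Among the 9 proteases that cut the receptor, all of which were tested, 2 were higher and 3 were lower. FURIN, which makes the first cut during receptor maturation, was at 131.8, 132.6 and 154.8 CPM in 1CT and at 58.3, 55.6 and 57.3 CPM in 1CT-A. Its log2 fold change was -1.33 (standard error 0.09, edgeR adjusted p = 8.3e-08). ADAM10, which makes the cut that follows ligand binding, was higher (0.63, edgeR adjusted p = 3.8e-04). Within the γ-secretase complex, APH1A was higher (0.42) while PSEN2 (-0.58) and APH1B (-0.42) were lower, and NCSTN and PSENEN did not pass the test.

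RBPJ, the factor whose core letters are printed above for HES1 and HES4, rose from 116 ± 16.6 CPM to 186 ± 3.92 CPM (both SD, n = 3), by 0.65 on the log2 scale (edgeR adjusted p = 6.45e-05). Of the 8 nuclear activators tested, RBPJ and SNW1 (0.30) were higher, EP300 (-0.34) was lower, and 5 did not pass, the 3 MAML coactivators among them. Of the 10 nuclear corepressors tested, 4 were higher, CTBP1 (0.52), CTBP2 (0.41), HDAC1 (0.18) and TLE3 (0.83), and 3 were lower, SPEN (-0.27) and KDM5A (-0.28) among them. Of the 9 genes of receptor turnover and endocytosis, 2 were higher and 3 were lower. NUMBL (0.20) was higher while NUMB (-0.36), the adaptor that removes receptors from the cell surface, was lower.

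Of 9 further genes listed under targets, 2 passed the filter, and both were higher in 1CT-A. Whether each of the 9 answers to Notch in these cells was not tested. MYC, a growth regulator that both the Notch and the Wnt pathway can switch on, had 70, 71 and 37 counts in 1CT and 172, 244 and 222 counts in 1CT-A (log2 fold change 1.29, edgeR adjusted p = 1.2e-04). HES6, which opposes HES1, had 19, 17 and 14 counts in 1CT and 36, 45 and 53 counts in 1CT-A (0.86, edgeR adjusted p = 0.0117). HES2, a HES gene left out by the filter, had 5, 13 and 17 counts in 1CT and 1, 0 and 1 counts in 1CT-A, a ratio of 25.1 in favor of 1CT with a 95% counting interval of 6.45 to 215.3 (edgeR without a filter, adjusted p = 3.7e-07). HEY2 and OLFM4 had 0 counts in all libraries, and HES5, HEYL and DTX1 had at most 1 count in a library.

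**Figure D5:**
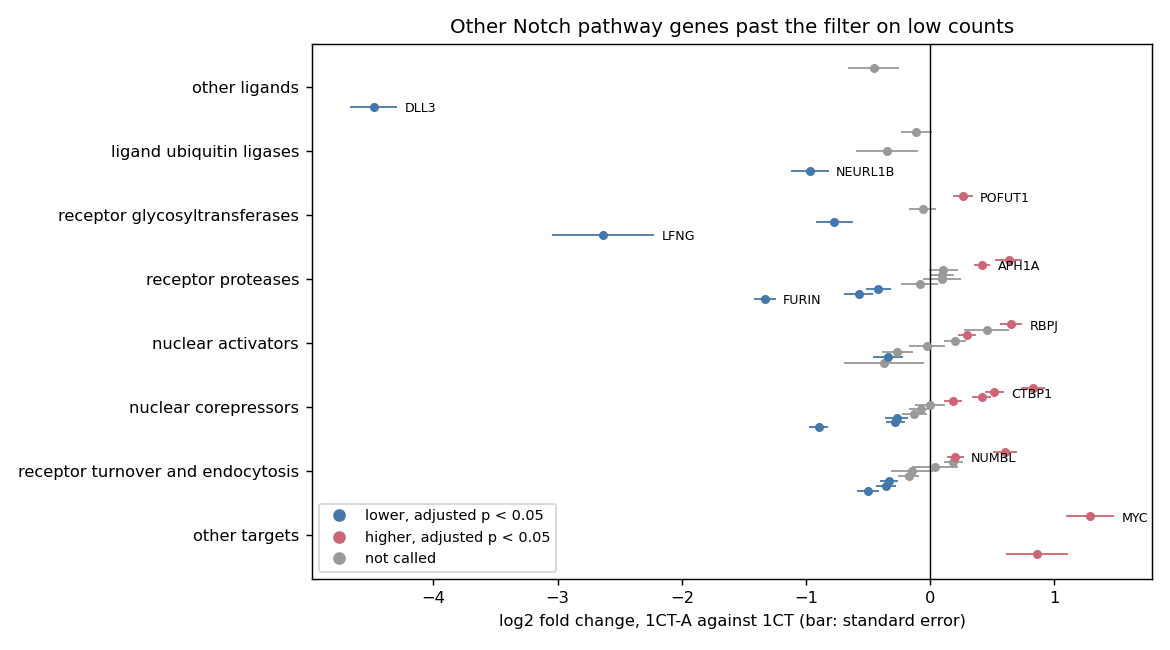
Log2 fold change (1CT-A over 1CT), with its standard error, for the 47 further Notch pathway genes past the filter on low counts, grouped by role. DLL3, LFNG and FURIN lie furthest to the left and MYC furthest to the right, and the other genes lie within 1 log2 unit of 0.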

How the data were processed

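Total RNA of 1CT and 1CT-A cells, 500 ng for each library, was made into QuantSeq 3′ libraries, in which reads come from near the poly(A) tail. The authors deposited raw counts per gene symbol, 1 file per library, without normalization or pooling. The submitters' processing notes name Bowtie2, edgeR and hg19. The counting tool, the annotation and the use of strand are not given in the sources used here. Positions printed here are those of GENCODE release 44 or RefSeq on GRCh38 and describe the annotation, not the counting. Counts of the 286 repeated symbols were added up. Replicates of a line differed by more than counting noise (chi-square per degree of freedom 3.00 to 8.42).

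Genes were tested with edgeR 4.0.16 in R 4.3.3, comparing 1CT-A with 1CT by its quasi-likelihood test after TMM normalization (factors 0.976 to 1.02) and filterByExpr with a minimum count of 10, and called at an adjusted p under 0.05. For the 4 members under the filter, the fit without a filter was used. P-values of that fit are not comparable with those of the fit with the filter, since they were smaller for each member called in both. CPM values are per library total. Standard errors were derived from the F statistic. The fit was tested on simulated data. DESeq2 1.42.0 and limma 3.58.1 served as alternatives.

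The members and lists were chosen with earlier results of these data known. Named are the 10 members, APC, and of the pathway list the called genes with an absolute log2 fold change of at least 1 and the gene with the highest mean CPM in each role. Other pathway genes were named after their values were seen, and some are counted with their role but not reported individually here.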

Additional observations from a re-analysis of the deposited data

How the results depend on the processing

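Of the 6 members that could be tested, 1 higher and 3 lower calls were made. With at least 10 counts required in every library these became 0 and 1, since NOTCH3, HES4 and HEY1 are then left out, and without a filter 5 members were lower. With each library left out in turn, 1 member was higher and 3 to 4 were lower, with 4 when any 1CT library was left out, since HES1 then passed the filter. Of the other pathway genes, 9 to 14 were higher and 13 to 14 were lower with a library left out, where 13 and 14 were called in the full data. By the study's own thresholds (a change of 2-fold or more with p under 0.01 before adjustment), 1 and 3 were left. Here these thresholds were applied to the edgeR test, whereas the study used a t-test. Every other alternative run for these counts stayed within 1.5 times, and no log2 fold change of a member or of APC and no share changed its direction or its side of the threshold. The labels give nothing that ties same-numbered libraries of the lines. Deviations of same-numbered libraries correlated at -0.16, 0.22 and -0.14 over 8224 genes, and those of other numbers at -0.29 to 0.34. Deviations from a mean of 3 libraries depend on each other, so these values cannot show whether the numbers mark pairs. With the replicate number as a block, 1 member was higher and 3 were lower, and over all genes 6091 passed where 6388 did without it, 6000 of them shared. Depth limits JAG2, DLL1, HES1 and NRARP most, since none had more than 20 counts in any library.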
